A study of Mus musculus with 4 samples.

Results

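The Kit-high cells were the germ cells in 4 single-cell RNA-Seq libraries whose *Kit* transcript stood above a fixed level. A cell entered with over 1000 genes and under 20% of its UMIs (unique molecular identifiers, one per captured transcript) from mitochondrial genes. Its *Kit* level, the natural log of 1 plus *Kit* UMIs per 100000 UMIs, had to exceed 3, which is 191 CPM (counts per 1000000 UMIs). It also needed at least 1 UMI of *Ddx4* or *Dazl*, which encode RNA-binding proteins of germ cells, and under 0.5% of its UMIs from *Ldhc*, *Meig1*, *Crisp2*, *Acrv1* and *Spink2*, genes of later germ cells. Of 7493 cells with enough genes, 135 (1.80%) were members, and the 6834 cells that met every limit except that on *Kit* are called Kit-low. Another 9 cells passed the *Kit* limit and failed a germ cell limit, 6 of them in CTRL 2.

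The cells were undifferentiated spermatogonia (A_undiff) from adult C57BL/6J males aged 6 to 8 weeks, sorted as E-cadherin+, CD49f+ and c-KIT-. Control mice (CTRL) were untreated, and treated mice (BU) had received busulfan, an alkylating agent that kills many spermatogonia, at 10 mg/kg 10 days earlier. Each library pooled cells of 3 mice, so differences between animals within a library were not seen, and 2 independent experiments each supplied a library of either kind. Per the labels, experiment 1 (CTRL 1, BU 1) used chemistry version 2 and experiment 2 (CTRL 2, BU 2) version 3.1. Wherever 4 values follow each other below, they are in the order CTRL 1, CTRL 2, BU 1, BU 2. The deposited matrices held 26802228, 39904588, 21136369 and 53579969 UMIs, and the median passing cell 8066, 30931, 9857.5 and 34176.5, so depth separated the experiments more than the treatments. The sort took cells without c-KIT protein at the surface, whereas membership here rests on *Kit* mRNA, and the part of the gate in the counts of members was not tested.

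The libraries of experiment 2 shared cell barcodes. CTRL 2 and BU 2 had 677 cell barcodes in common, and in each the shallower copy held between 0.970% and 1.93% of the UMIs of the deeper one. Among passing cells, 70 barcodes passed in both libraries. CTRL 1 and BU 1 shared 11 barcodes, and BU 1 and CTRL 2 shared 1. All 6 CTRL 2 members and 22 of the 37 BU 2 members had a barcode found in the other library. Only 1 member was the shallow copy, a CTRL 2 cell with 1598 UMIs and 1 *Kit* UMI whose barcode had 116529 UMIs in BU 2. A second CTRL 2 member went against the germ cell label. It had 875 UMIs of *Cyp17a1*, 437 of *Insl3*, 131 of *Hsd3b1* and 36 of *Star*, all genes of steroid-producing Leydig cells, beside 10 of *Kit*, 1 of *Dazl* and none of *Ddx4* or *Stra8*. Leydig cells also express *Kit*. Leaving out such copies and cells with over 1% of UMIs from Leydig genes removed these 2 members and left 133, of which 5 were CTRL, and results that rest on CTRL members are given with and without them.

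KIT is the receptor tyrosine kinase for KIT ligand, made by Sertoli cells in the tubule, and signals through PI3K and AKT. Spermatogonia gain it when retinoic acid moves A_undiff into differentiation, and it is needed for the survival and division of the differentiating cells. *Stra8*, a gene induced by retinoic acid, comes on in the same step, while genes of self-renewal such as *Gfra1*, the receptor subunit for GDNF, are lost. *Kit* lies on chromosome 5 at chr5:75574916-75656722 (GRCm38, plus strand), *Stra8* at chr6:34920163-34939344 (plus strand) and *Gfra1* at chr19:58235604-58455909 (minus strand).

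The members were mostly BU cells. CTRL 1 gave 1 member, CTRL 2 gave 6, BU 1 gave 91 and BU 2 gave 37, so 128 of the 135 came from treated mice. Their share of passing cells in CTRL 1 was 0.0322% (exact 95% binomial interval 0.000816 to 0.180) and in CTRL 2 0.536% (0.197 to 1.16). In BU 1 it reached 4.53% (3.66 to 5.54) and in BU 2 2.93% (2.07 to 4.01), and the CTRL and BU libraries did not overlap. These intervals cover counting error only. The mean share was 0.284% ± 0.356 (SD, n = 2 libraries) in CTRL and 3.73% ± 1.13 (SD, n = 2) in BU. The difference was 3.45 percentage points, 4.50 in experiment 1 and 2.39 in experiment 2. A two-sided exact permutation test gave p = 0.33, the smallest that 2 libraries against 2 allow. Because shares are of the cells each sort recovered, more Kit-high cells and fewer other cells cannot be told apart. Without the copies and Leydig cells the difference was 3.56 percentage points.

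The *Kit* limit asked different numbers of molecules of shallow and deep cells. A germ cell of median depth needed 2 *Kit* UMIs in either library of experiment 1 and 7 in either library of experiment 2. The median member had 2 *Kit* UMIs in BU 1 and 11 in BU 2. Just inside the limit, the lowest member stood at 3.004 with 15 *Kit* UMIs among 78283, and just outside the highest Kit-low cell stood at 2.998. Within 0.2 of the limit lay 60 members and 59 Kit-low cells. The members were therefore the upper end of a continuous range and not a group set apart by a gap in *Kit*.

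A comparison at equal depth used every germ cell thinned to 5000 UMIs, and left out 260, 41, 57 and 23 shallower cells. At least 1 *Kit* UMI remained in 0.649% (18 of 2774), 3.11% (27 of 868), 11% (210 of 1914) and 11.2% (116 of 1032) of the cells, and at least 2 in 0.0360%, 0.461%, 3.19% and 3.20%. The BU libraries, which differed in their shares under the fixed limit, had nearly equal shares at equal depth, and both stood above both CTRL libraries. Before thinning, 1.25%, 11.4%, 17.7% and 34.6% of germ cells had any *Kit* UMI. As a measure of free RNA, none of 22 passing cells led by Sertoli, myoid or macrophage markers had a *Kit* UMI, a count of 0 that allows a share of up to 13.6%. Cells rich in late germ cell transcripts had one in 12.3% in CTRL 2 (14 of 114) and 12.8% in BU 2 (16 of 125) and in none in experiment 1. Their median depth was 7923.5 and 8645 UMIs, under that of the germ cells. Of these cells 5 in CTRL 2 and 2 in BU 2 had a *Kit* level over 3. If their *Kit* UMIs were free RNA, any single *Kit* UMI in experiment 2 can be background. Whether they were free RNA or the cells' own was not tested. The unthinned shares of the deeper germ cells were not compared with these shares.

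**Figure D1:**
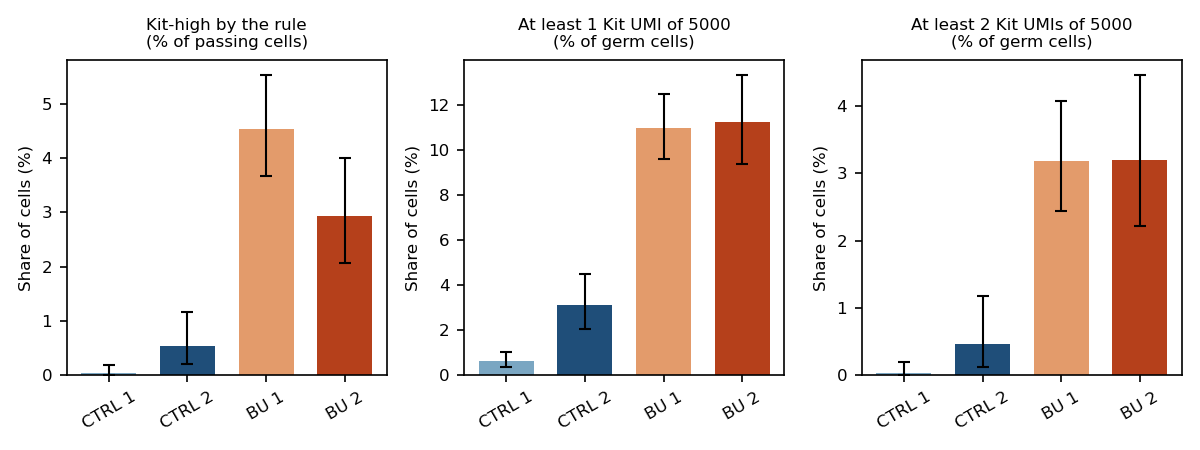
Share of cells in each library (percent) that were Kit-high by the rule (left), had at least 1 *Kit* UMI among 5000 (middle) or had at least 2 (right). Bars are single libraries and error bars are exact 95% binomial intervals; both BU bars stand above both CTRL bars in each panel, from 2.93% and 4.53% against at most 0.536% on the left to 3.19% and 3.20% against at most 0.461% on the right.

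For gene levels, the UMIs of all members of a library were summed and given as CPM, as were those of the Kit-low cells of that library. In the summed members *Kit* itself was 225, 279, 278 and 248 CPM, against 1.48, 5.88, 15.2 and 25.5 CPM in Kit-low cells. These values follow from the rule. The CTRL 1 value of every gene is that of 1 cell with 8906 UMIs, in which a single UMI makes 112 CPM, so CTRL 1 shows little beyond presence. Members in BU 1 were about as deep as Kit-low cells, with a median of 9542 against 9918 UMIs. In experiment 2 they were deeper, with 39968 against 32282 in CTRL 2 and 43776 against 35538.5 in BU 2. None of the members was marked as a doublet.

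*Stra8*, which the rule did not use, served as a check of the label. Its level in members was 112, 640, 563 and 347 CPM, the first from 1 UMI. In Kit-low cells it was 65.7, 42.3, 148 and 91.1 CPM, and the members were higher in CTRL 2, BU 1 and BU 2, with a single UMI in CTRL 1. The log2 fold change of members over Kit-low cells was 2.24 ± 0.23 (SE), with an adjusted p of 2.2e-19 by edgeR's quasi-likelihood test with library as a term. At 5000 UMIs a *Stra8* UMI was present in 70.5% of BU 1 members (62 of 88) and 64.9% of BU 2 members (24 of 37). In Kit-low cells the shares were 32.2% and 21.4%. The other members had no *Stra8* UMI at this depth, which does not show that the transcript was absent.

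The start of *Stra8* was searched for the letters that retinoic acid receptors bind. Receptors of this family recognise AGGTCA, singly or in pairs. The opposite strand then reads TGACCT. In the 250 bases before the RefSeq start of *Stra8* (GRCm38.p6, plus strand) a search of both strands found AGGTCA at bases -194 to -189 and -38 to -33. Both are shown with 10 bases on either side, the motif in capitals, because *Stra8* was the searched gene with matches among the retinoic acid genes that were higher in members:
Stra8, chr6:34920744-34920769: tggggtgaaaAGGTCAtcttgctcct
Stra8, chr6:34920900-34920925: ctggggtaccAGGTCAgttttttacc
Of 32851 such windows in RefSeq, 4607 (14.0%) held the motif at least once and 446 (1.36%) at least 2 times. Of 7 retinoic acid genes that were higher in members, 6 had a window and 1, *Stra8*, held the motif. A match is a run of letters and no measured site. In another annotated transcript, which starts upstream, the window lies within an exon.

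The members differed from Kit-low cells of the same libraries in 3157 of 13501 genes tested (23.4%) at an adjusted p under 0.05, of which 1109 were higher (8.21%) and 2048 lower (15.2%). The 8 genes of the rule were left out. With BU libraries alone 4260 of 14097 genes (30.2%) passed, 1867 higher (13.2%) and 2393 lower (17.0%), and 2858 were shared with the first set, 90.5% of the first and 67.1% of the second. Without copies and Leydig cells 4148 of 13461 (30.8%) passed, 1636 higher (12.2%) and 2512 lower (18.7%). In the CTRL libraries alone, with 7 members, 310 passed. The count fell to 1222 without BU 1 and 895 without BU 2, to 1016 by DESeq2, to 1241 with the *Kit* limit at 2.5, to 1075 with at least 2 *Kit* UMIs at equal depth and to 1183 without library as a term.

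Among 12 tested genes of differentiating spermatogonia, 4 were higher in members and 2 lower (50%, against 23.4% of all genes), and the median log2 fold change was 0.34 against -0.09 over all genes. Besides *Stra8* these were *Dmrtb1*, *Dnmt3b* and *Prdm9*. *Dmrtb1* (chr4:107676290-107684230, GRCm38, minus strand), a transcription factor that times the move from mitosis to meiosis, was 0, 32.0, 127 and 125 CPM in members. Kit-low cells had 15, 9.95, 31.3 and 34.8 CPM. The members were higher in 3 of 4 libraries, and the log2 fold change was 1.71 ± 0.26 (SE). The DNA methyltransferase *Dnmt3b* was 337, 105, 213 and 159 CPM in members and 93.7, 66.0, 84.6 and 47.5 CPM in Kit-low cells, higher in all 4 libraries, with a log2 fold change of 1.15 ± 0.22 (SE). *Prdm9*, the histone methyltransferase that places meiotic recombination, stayed low at 0, 4.57, 5.67 and 14.0 CPM in members against 0.623, 1.31, 2.42 and 2.57 CPM. The X-linked homeobox gene *Rhox13* had a log2 fold change of 0.61 ± 0.24 (SE, adjusted p = 0.0512), and passed without copies and Leydig cells (0.65, adjusted p = 0.0113) and with BU libraries alone (0.66). *Sohlh1* and *Sohlh2*, transcription factors needed for entry into differentiation, had log2 fold changes of 0.08 ± 0.22 and 0.00 ± 0.24 (SE) and did not pass, although *Sohlh1* did with BU libraries alone (0.46, adjusted p = 0.0285).

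The lower genes of that list were *Ccnd2* and *Nanos3*. *Ccnd2*, encoding cyclin D2, was 139 CPM in BU 1 members and 56.1 in BU 2 members against 944 and 701 CPM in Kit-low cells. In CTRL 2 the values were 192 and 266 CPM. The 1 CTRL 1 member, at 1011 CPM from 9 UMIs, went the other way from its Kit-low cells at 445 CPM. The log2 fold change was -2.40 ± 0.26 (SE, adjusted p = 2.27e-17). *Nanos3*, an RNA-binding protein of early germ cells, showed the same order in those 3 libraries, with 22.8, 1.13 and 3.51 CPM in members of CTRL 2, BU 1 and BU 2 against 113, 34.6 and 39.5 CPM. In CTRL 1 it was 562 CPM in the member, from 5 UMIs, and 127 in Kit-low cells.

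**Figure D2:**
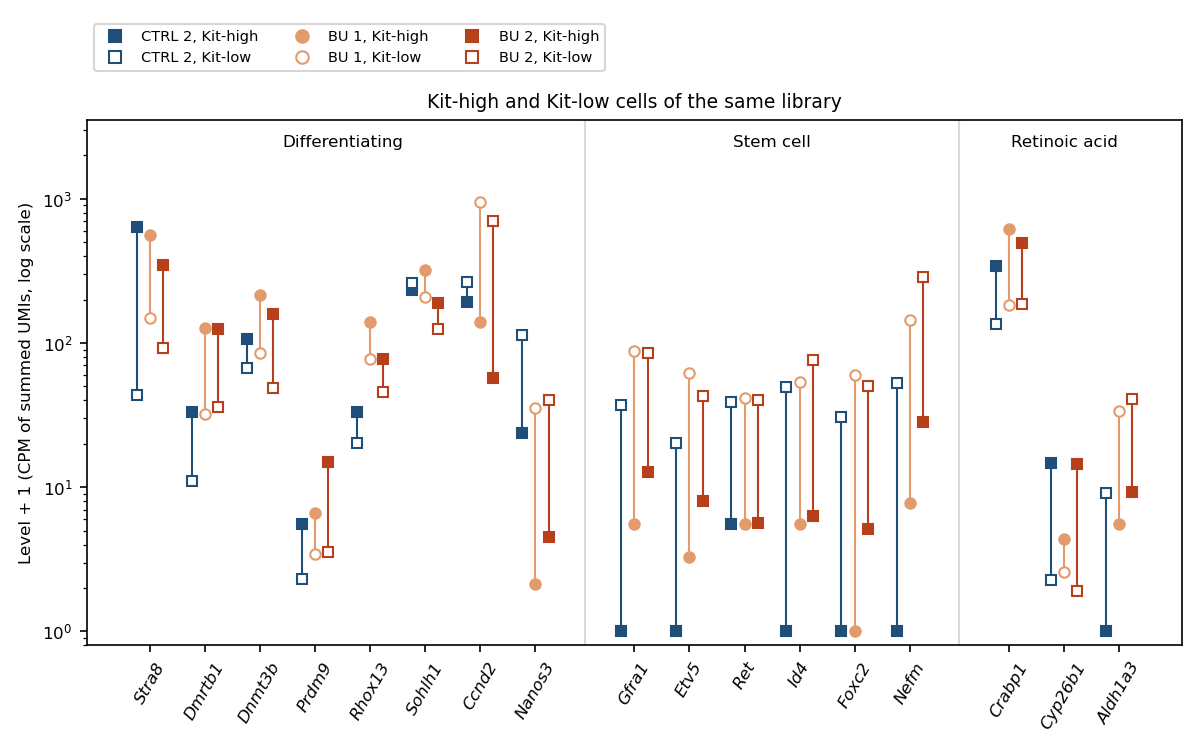
Level plus 1 (CPM of summed UMIs, log axis) of 17 genes in members (filled) and Kit-low cells (open) of CTRL 2, BU 1 and BU 2, joined by a line within each library. CTRL 1, with 1 member, is not drawn; the 6 stem cell genes lie lower in members of each library, at 0 CPM for 5 of them in CTRL 2, and *Stra8*, *Dmrtb1*, *Dnmt3b*, *Prdm9*, *Rhox13*, *Crabp1* and *Cyp26b1* lie higher.

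Genes of spermatogonial stem cells were lower as a group. All 11 tested genes of the 12 on the list passed in that direction, with a median log2 fold change of -3.38, where 15.2% of all genes were lower. The count was 11 of 11 without copies and Leydig cells (18.7% of all genes) and 11 of 12 with BU libraries alone (17.0% of all genes). *Gfra1* was 0, 0, 4.53 and 11.7 CPM in members, against 32.0, 36.1, 86.7 and 84.4 CPM in Kit-low cells, a log2 fold change of -3.50 ± 0.35 (SE). Only 2 of 88 thinned BU 1 members and 2 of 37 BU 2 members had a *Gfra1* UMI. Its co-receptor *Ret* was 0, 4.57, 4.53 and 4.68 CPM in members against 44.8, 37.7, 40.3 and 39.3 CPM. *Id4*, an inhibitor of DNA binding that marks stem cells, was 0, 0, 4.53 and 5.26 CPM in members, while Kit-low cells had 41.9, 48.3, 53 and 74.9 CPM. Members were below Kit-low cells in CTRL 2, BU 1 and BU 2 for these 3 genes, and the CTRL 1 cell is too shallow to show a difference at such levels.

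The transcription factors of the list behaved alike. *Etv5*, a target of GDNF, had a log2 fold change of -3.43 ± 0.40 (SE), and *Bcl6b*, another, of -3.38 ± 0.46. *Foxc2* had -4.57 ± 0.45, *Egr2* -3.22 ± 0.41, *Lhx1* -2.69 ± 0.33, *Eomes* -2.08 ± 0.43 and *Lhx2* -1.80 ± 0.33. The neurofilament gene *Nefm* was 6.80 CPM in BU 1 members and 27.5 in BU 2 members against 144 and 285 CPM in Kit-low cells, and 0 in the CTRL members against 25.7 and 51.9 CPM.

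Of 9 tested progenitor genes, which mark A_undiff on the way to differentiation, 3 were lower and none higher, with a median of -0.73. The share that passed was 33.3%, not far from the 23.4% of all genes. Without copies and Leydig cells 1 was higher and 3 lower (44.4%, against 30.8% of all genes). With BU libraries alone 2 were higher and 3 lower (55.6%, against 30.2%). *Upp1*, encoding uridine phosphorylase, was 337, 32.0, 2.27 and 1.17 CPM in members against 184, 148, 14.0 and 13.0 CPM, a log2 fold change of -2.51 ± 0.38 (SE). It was low in all BU cells, members or not. *Ddit4*, an inhibitor of mTORC1, had -1.69 ± 0.33, and *Pou5f1*, the pluripotency factor, -2.11 ± 0.46. *Sox3* and *Rarg*, a retinoic acid receptor, had 0.50 ± 0.23 (adjusted p = 0.0959) and 0.40 ± 0.31 (adjusted p = 0.368). With BU libraries alone both were higher, *Sox3* at 88.4 and 105 CPM in BU 1 and BU 2 members against 35.1 and 46.4 CPM.

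Genes shared by all early spermatogonia divided. Of 16 tested, 6 were lower and 1 higher (43.8%, against 23.4% of all genes), with a median of -0.44. *Zbtb16*, the self-renewal factor PLZF, was 112, 133, 54.4 and 50.3 CPM in members and 219, 224, 199 and 123 CPM in Kit-low cells, lower in CTRL 2, BU 1 and BU 2, with a log2 fold change of -1.54 ± 0.24 (SE). *Nanos2* had -3.92 ± 0.69, *Thy1* -3.16 ± 0.97, *Cd9* -1.80 ± 0.25 and *Mcam* -1.33 ± 0.26. *Itga6*, which encodes the CD49f used in the sort, was 31.7 and 32.2 CPM in BU members against 68.3 and 54.1 CPM and had -1.02 ± 0.28. *Lin28b*, which blocks let-7 miRNAs, was the higher gene at 1.21 ± 0.27. *Dmrt1*, *Sall4* and *Foxo1* had 0.04 ± 0.22, -0.45 ± 0.23 and -0.42 ± 0.23 and did not pass. *Sall4* was lower with BU libraries alone, at -0.71. *Cdh1*, which encodes the E-cadherin of the sort, was detected little in any group, with a UMI in 1.14% and 5.41% of thinned BU 1 and BU 2 members and in 2.63% and 1.71% of Kit-low cells.

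Of 18 tested retinoic acid genes, 7 were higher and 2 lower (50%, against 23.4% of all genes), with a median of 0.73. The higher ones include *Stra8*, which is also counted among the genes of differentiating spermatogonia. Without copies and Leydig cells 7 were higher and 4 lower (61.1%, against 30.8% of all genes), with a median of 0.58. *Crabp1*, a carrier that holds retinoic acid in the cell, was 112, 343, 613 and 495 CPM in members against 190, 135, 183 and 185 CPM. The single CTRL 1 member was the exception to higher values, and the log2 fold change was 1.19 ± 0.23 (SE). *Cyp26b1*, which breaks retinoic acid down, had 2.85 ± 0.45, *Rec8*, a meiotic cohesin, 1.34 ± 0.41, and the synthetic enzyme *Aldh1a2* 0.81 ± 0.31. *Cyp26a1* and *Aldh1a3* were lower at -1.26 ± 0.50 and -2.65 ± 0.41. *Aldh1a1* had 2.02 ± 0.41, but without copies and Leydig cells the value was -1.47, and its level in CTRL 2 members went from 448 to 0 CPM.

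The 28 tested genes of KIT signalling, with *Kit* itself left out, gave 2 higher and 5 lower and a median of -0.30. The share that passed, 25%, was close to the 23.4% of all genes, and with BU libraries alone it was 37.9% against 30.2%. *Akt1* was 105, 101 and 82.5 CPM in members of CTRL 2, BU 1 and BU 2 against 46.0, 39.8 and 33.7 CPM, a log2 fold change of 1.12 ± 0.23 (SE), and *Mtor* had 0.83 ± 0.24. Both encode kinases of the PI3K pathway. Catalytic subunits of PI3K were lower, with -1.63 ± 0.34 for *Pik3ca* and -3.13 ± 0.57 for *Pik3cd*, as were the Src-family kinase *Fyn* (-1.83 ± 0.26), *Mapk3* (-1.49 ± 0.29) and *Ccnd3* (-0.74 ± 0.24). *Kitl*, the ligand, was 73.1 CPM in CTRL 2 members and at most 0.585 CPM in the other libraries, and the CTRL 2 value fell to 0 without copies and Leydig cells.

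Meiotic entry genes gave 7 higher and 3 lower of 33 tested (30.3%, against 23.4% of all genes), with a median of 0.22. The BU libraries alone gave 11 higher and 4 lower (45.5%, against 30.2%). *Tex15*, needed for repair of meiotic breaks, was 450, 754, 821 and 955 CPM in members against 136, 369, 484 and 341 CPM in Kit-low cells, higher in CTRL 2, BU 1 and BU 2 and, from 4 UMIs, in CTRL 1, with a log2 fold change of 0.89 ± 0.22 (SE). *Meioc*, which keeps cells in meiosis, had 0.95 ± 0.31, *Mei1* 1.59 ± 0.41 and the cohesin *Stag3* 0.63 ± 0.24. *Mael* and *Rad21l* were lower at -0.91 ± 0.23 and -1.43 ± 0.49. *Meiob* was lower too, with no UMI in any member and at most 2.89 CPM in Kit-low cells. *Sycp3*, a part of the synaptonemal complex, had 0.22 ± 0.23 and did not pass, but was higher with BU libraries alone (0.49, adjusted p = 0.0205). DNA methylation genes gave 2 higher (*Dnmt3b* and *Tet3*) and 1 lower of 7 (42.9%, against 23.4% of all genes). The lower one was *Tet1*, with no UMI in any member and at most 2.71 CPM in Kit-low cells. *Tet3*, which oxidises 5-methylcytosine, was 117 and 135 CPM in BU members against 37.4 and 26.1 CPM.

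Cell cycle genes separated weakly. Of 28 S phase genes, 1 was higher and 2 lower (10.7%), with a median of -0.07. Of 26 mitosis genes, 5 were higher and 2 lower (26.9%, against 23.4% of all genes), with a median of 0.19. The BU libraries alone gave 8 higher and 2 lower mitosis genes (38.5%, against 30.2%). *Mki67*, the proliferation marker Ki-67, was 0, 343, 173 and 415 CPM in members against 16.9, 83.6, 165 and 193 CPM, a log2 fold change of 0.83 ± 0.23 (SE). *Plk1* had 0.83 ± 0.24, *Kif4* 0.80 ± 0.25, *Tpx2* 0.66 ± 0.23 and *Aspm* 0.64 ± 0.23, all with roles on the spindle. *Cdk1* and *Ccnb2*, whose proteins form the mitotic kinase, were lower at -0.76 ± 0.24 and -0.70 ± 0.24, and *Ccne2*, a cyclin of the start of S phase, was the higher S phase gene at 1.34 ± 0.25. *Chaf1b* and *Prim1* were the lower ones at -1.13 ± 0.31 and -0.81 ± 0.25. At 5000 UMIs the median member had 18 S phase and 19 mitosis UMIs in BU 1 and 20 and 26 in BU 2, against 18 and 15 and 15 and 14 in Kit-low cells. Mitosis UMIs varied widely among members, with at least 10% of BU 1 members at 10 or fewer and a maximum of 48.

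**Figure D3:**
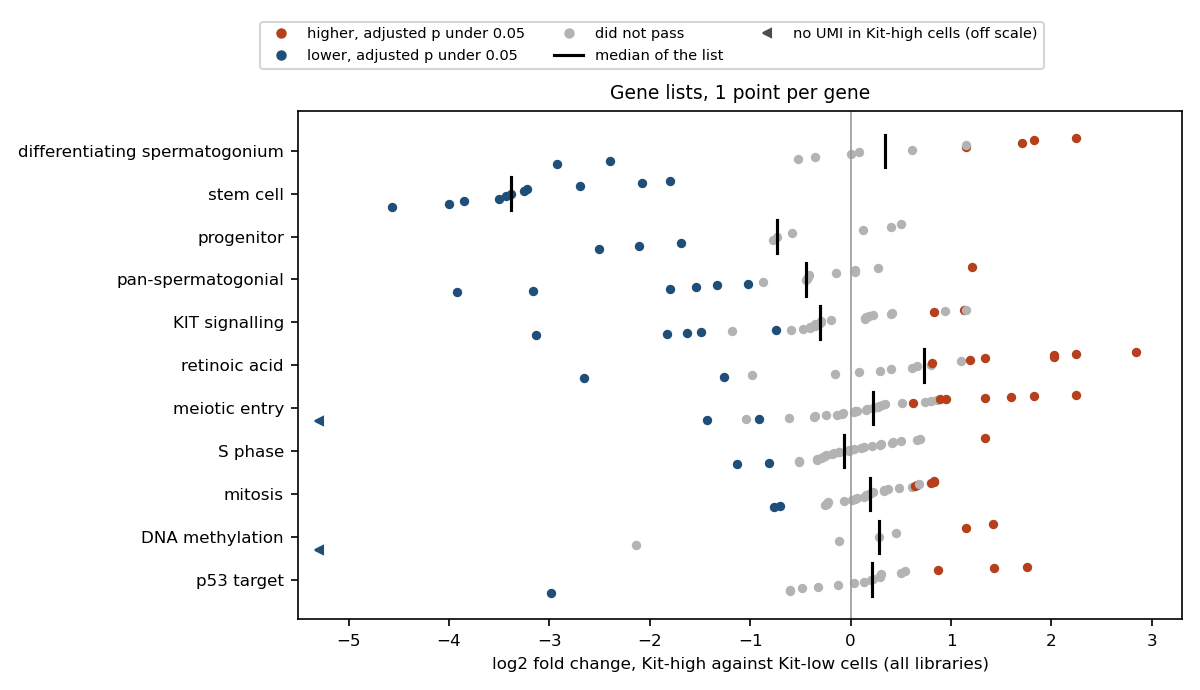
Log2 fold change of members over Kit-low cells in all libraries for each tested gene of 11 lists (points), with the list median (black bar); red and blue points passed an adjusted p of 0.05. Stem cell genes lie wholly to the left, around -3.38, and the other medians lie between -0.73 and 0.73; triangles at the left edge are *Meiob* and *Tet1*, which had no UMI in members.

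Of 18 tested targets of p53, the factor that responds to DNA damage, 3 were higher in members, 1 was lower, and the median was 0.21. The share that passed was 22.2%, close to the 23.4% of all genes. It was 27.8% without copies and Leydig cells (30.8% of all genes), and with BU libraries alone 6 were higher and 4 lower of 19 (52.6%, against 30.2% of all genes). *Cdkn1a*, the cell cycle inhibitor p21, had -0.12 over all libraries and was lower at -1.03 without copies and Leydig cells and at -0.99 with BU libraries alone. *Ccng1*, cyclin G1, was 0, 73.1, 235 and 262 CPM in members against 43.9, 36.0, 123 and 111 CPM, a log2 fold change of 0.87 ± 0.23 (SE). *Phlda3*, an inhibitor of AKT, and *Perp*, a membrane protein of cell death, had 1.42 ± 0.26 and 1.75 ± 0.47. *Pmaip1*, encoding NOXA, was lower, at 11.3 and 21.1 CPM in BU members against 143 and 101 CPM in BU Kit-low cells and 0 CPM in CTRL members. The 16 tested genes that the study named for the response to busulfan, a list chosen on these samples and so no independent evidence, gave 1 higher (*Hist1h1a*, 1.11 ± 0.23) and 4 lower (31.2%). Without copies and Leydig cells that list gave 4 higher and 6 lower of 16 (62.5%, against 30.8% of all genes), and with BU libraries alone 4 higher and 8 lower of 17 (70.6%, against 30.2%).

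By size alone, with a minimum level, 9 of the 10 genes with the largest positive log2 fold changes among those that passed were *Foxn4* (2.81), *Gm26606* (2.56), *Grb10* (2.46), *Stra8*, *Vegfb* (2.21), *Slc8b1* (1.90), *Dusp2* (1.90), *Cdk6* (1.76) and *Dmkn* (1.72). *Grb10*, an adaptor that binds receptor tyrosine kinases, was 112, 68.5, 62.3 and 89.5 CPM in members against 5.57, 10.8, 13.4 and 11.9 CPM. *Cdk6*, a kinase of the G1 phase, was 225, 96.0, 74.8 and 60.2 CPM against 44.0, 39.5, 17.2 and 12.2 CPM. Members were above Kit-low cells in CTRL 2, BU 1 and BU 2 for both genes, and the CTRL 1 cell had 1 and 2 UMIs. *Foxn4* rested on the CTRL 1 cell, at 112 CPM from 1 UMI against at most 4.57 CPM elsewhere, and did not pass with BU libraries alone (adjusted p = 0.113). *Gm26606*, *Dmkn* and *Slc8b1* likewise met the minimum mean level of 10 CPM only through 1 UMI of that cell. In CTRL 2, BU 1 and BU 2 members *Gm26606* was 9.14, 3.40 and 8.77 CPM and *Dmkn* 4.57, 5.67 and 3.51 CPM. *Slc8b1* was 27.4, 10.2 and 10.5 CPM there. With BU libraries alone the adjusted p of these 3 genes in edgeR was 8.65e-05, 0.0496 and 0.00508. The 10 most negative were *Foxc2*, *Gm7967* (-4.42), *Trf* (-4.38), *Tcl1* (-4.36), *Matn4* (-4.31), *Dusp6* (-4.07), *Pygl* (-4.00), *Egr1* (-4.00), *Id4* and *Zic1* (-3.98). *Dusp6* and *Egr1* are both targets of ERK signalling. *Dusp6* was 0 CPM in CTRL members and 6.80 and 6.43 in BU 1 and BU 2 members, against 45.8, 34.3, 130 and 77.6 CPM in Kit-low cells.

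In the BU libraries levels also differed between cells grouped by their *Kit* UMIs. Within BU 1 the thinned germ cells were divided into 1704 with no *Kit* UMI among 5000, 149 with 1, 43 with 2 and 18 with 3 or more, and in BU 2 into 916, 83, 25 and 8. *Stra8* was 133, 399, 514 and 617 CPM across these steps in BU 1 and 83.0, 204, 153 and 443 CPM in BU 2. *Dmrtb1* was 26.8, 105, 117 and 90.2 CPM in BU 1 and 30, 73.1, 112 and 126 CPM in BU 2. *Dnmt3b* was 78.9, 163, 228 and 246 CPM in BU 1 and 43.2, 89.3, 123 and 180 CPM in BU 2. Each was higher at 1 *Kit* UMI than at none in both libraries. *Stra8* in BU 2 was lower at 2 *Kit* UMIs than at 1. The last step had under 20 cells in each library. It changed the order for *Dmrtb1* in BU 1 and carried most of the range of *Stra8* in BU 2. *Gfra1* ran down from 90.7 to 26.8 and 6.76 CPM over the first 3 steps in BU 1 and from 87.3 to 50.8 and 41.8 CPM in BU 2. *Ccnd2* ran down from 975 to 428 and 133 CPM in BU 1 and from 719 to 465 and 299 CPM in BU 2. In the CTRL libraries, with 17 and 23 cells at 1 *Kit* UMI, both genes were higher there than at none, whereas the 4 CTRL 2 cells with 2 *Kit* UMIs had 96.3 CPM of *Ccnd2* and 22.2 CPM of *Gfra1*, lower as in BU. From none to 1 *Kit* UMI, *Ccnd2* was 437 and 655 CPM in CTRL 1 and 261 and 359 CPM in CTRL 2, and *Gfra1* was 30.1 and 35.2 CPM and 35.3 and 50.1 CPM. *Stra8* was higher at 1 *Kit* UMI as in BU, at 65.1 and 437 CPM in CTRL 1 and 38.7 and 243 CPM in CTRL 2. These steps are a description with no test, and cells with more *Kit* UMIs in BU 2 were also deeper, with median UMIs of 35315.5, 45326, 53795 and 45427.5.

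**Figure D4:**
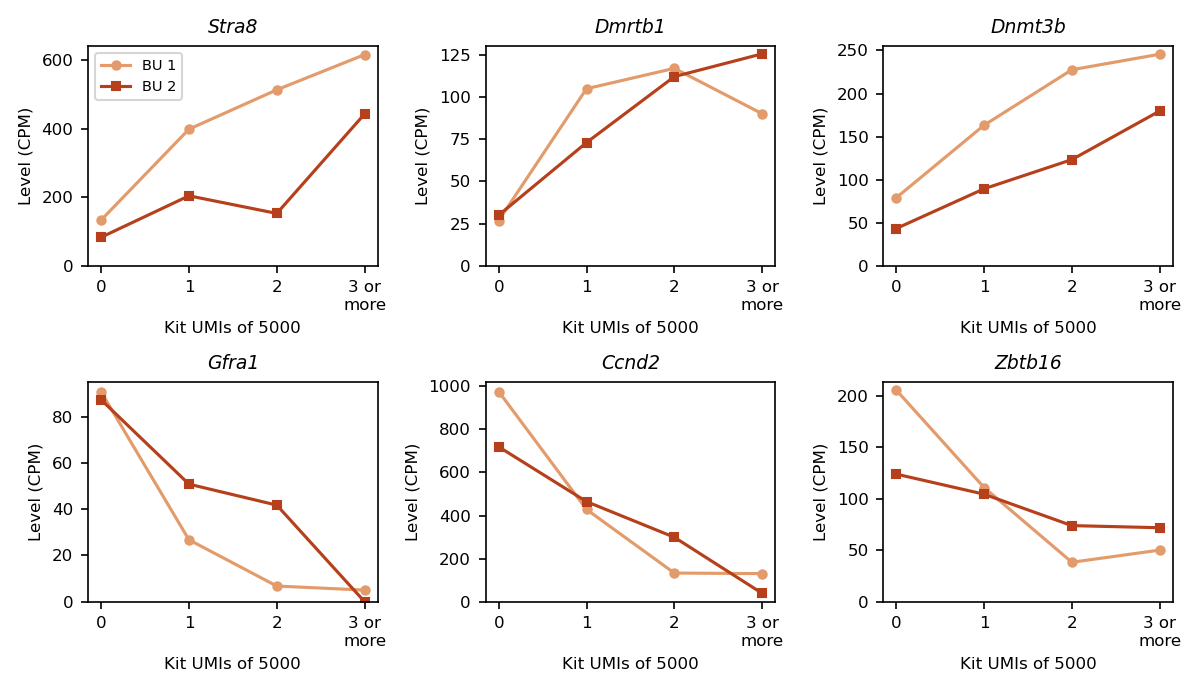
Level (CPM of summed UMIs) of 6 genes in BU 1 and BU 2 germ cells grouped by their *Kit* UMIs after thinning to 5000 UMIs. *Stra8*, *Dmrtb1* and *Dnmt3b* are higher and *Gfra1*, *Ccnd2* and *Zbtb16* lower at 1 *Kit* UMI than at 0 in both libraries; the last group holds 18 cells in BU 1 and 8 in BU 2.

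Members were also compared with cells that had *Stra8* without much *Kit*. Kit-low cells whose *Stra8* level exceeded 3 on the scale of the rule numbered 439 in BU 1 and 123 in BU 2, and members made up 11.5% of all *Stra8*-high germ cells in BU 1 and 12.8% in BU 2. All members were compared with them, although only 57 of 91 BU 1 members (62.6%) and 18 of 37 BU 2 members (48.6%) were *Stra8*-high, so the cells were not matched on *Stra8*. With BU libraries alone and without *Stra8*, 2319 of 11548 genes differed between members and these cells (20.1%), 1026 higher (8.88%) and 1293 lower (11.2%) in members. *Dmrtb1* was 127 and 125 CPM in BU 1 and BU 2 members against 40.4 and 26.7 CPM, a log2 fold change of 1.87 ± 0.17 (SE). *Ccnd2* was 139 and 56.1 CPM against 563 and 496 CPM, at -2.64 ± 0.17, and *Nanos3* had -3.58 ± 0.42. Both BU libraries showed these 3 differences.

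Of 11 stem cell genes, 8 were lower in members than in *Stra8*-high Kit-low cells (72.7%, against 20.1% of all genes), with a median of -2.10. *Gfra1* was 4.53 and 11.7 CPM against 49.3 and 45.9 CPM. *Lhx1*, *Lhx2* and *Eomes* did not pass, at -0.35 ± 0.29, -0.45 ± 0.29 and -0.35 ± 0.46. Mitosis genes gave 10 higher and none lower of 26 (38.5%), with a median of 0.31, and *Mki67* had 0.72 ± 0.15 and *Plk1* 0.90 ± 0.16. Retinoic acid genes gave 2 higher, *Crabp1* (0.57 ± 0.14) and *Cyp26b1* (1.83 ± 0.51), and 1 lower of 16 (18.8%, close to all genes), whereas *Rec8* had 0.00 ± 0.40. Meiotic entry genes gave 7 higher and 1 lower of 29 (27.6%, not far from the 20.1% of all genes), and p53 targets 5 higher and 1 lower of 17 (35.3%). Differentiation genes gave 4 higher and 3 lower of 10 (70%). Depth and the *Kit* limit chose which *Stra8*-high cells counted as members, and their part in these differences was not tested.

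Markers of most somatic cell types were at a few CPM or less in BU members. Those of Sertoli cells and spermatids stood above that, but summed to less in BU members than in BU Kit-low cells. Leydig genes summed to 4.53 CPM in BU 1 and 4.09 in BU 2, all from *Star*, and to 9212 CPM in CTRL 2, where the marker cell described above brought them, and to 5.60 CPM there without copies and Leydig cells. Of the 7 Leydig genes only *Star* was tested, and it passed as higher with 2.49 ± 0.41 but not without those cells (0.78, adjusted p = 0.209). Sertoli genes summed to 29.5 and 42.1 CPM in BU members against 49.9 and 99.8 CPM in Kit-low cells. Of 6 tested, 1, *Cldn11*, was lower (16.7%, close to the 15.2% of all genes that were lower). Macrophage genes summed to 0 and 1.75 CPM, endothelial to 1.13 and 3.51, and myoid to 1.13 and 1.75 CPM in the BU members. *Cd74* (macrophage) and *Kdr* (endothelial) were lower, and no myoid gene was tested over all libraries. With BU libraries alone, 2 myoid genes were tested and both were lower. All 3 mast cell genes were at 0 in members and summed to at most 0.0311 CPM in Kit-low cells, and none was tested. Spermatid transcripts were lower for 4 of 6 genes (66.7%, against 23.4% of all genes), and with BU libraries alone 4 were lower and 1, *Odf1*, higher. They summed to 356 and 501 CPM in BU members against 495 and 955 CPM.

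BU and CTRL members were compared over 4 library sums, with 1 and 6 cells on the CTRL side. Of 7055 genes tested, 39 passed (0.553%), 1 higher (0.0142%) and 38 lower (0.539%) in BU, and 288 had an unadjusted p under 0.05. Only *Cebpb*, *Nanos3* and *Ccnjl* passed without copies and Leydig cells, of 6934 tested (0.0433%), none without CTRL 1 (535 had an unadjusted p under 0.05) and 1 without CTRL 2, and DESeq2 called 13 of the 7055. The 10 lower genes with the largest changes were *Emp3*, *Ly6e*, *Ccnjl*, *Susd3*, *Bcat2*, *Timp2*, *Fads2*, *Nanos3*, *Tkt* and *Pld3*. *Nanos3* was 562, 22.8, 1.13 and 3.51 CPM in members, and CTRL 2 had 28.0 CPM without copies and Leydig cells. The BU libraries lay below both CTRL values, with a log2 fold change of -4.41 ± 1.06 (SE, adjusted p = 0.0091). *Nanos3* was lower in BU Kit-low cells as well, at 34.6 and 39.5 CPM against 127 and 113 CPM, and the difference between the effects in members and Kit-low cells was -2.31 ± 0.88 (adjusted p = 0.25). *Cebpb*, a leucine zipper factor, was 562, 86.8, 13.6 and 8.19 CPM in members. *Emp3* was 119 CPM in CTRL 2 and 5.60 without copies and Leydig cells. The gene that passed as higher, *Srp54b*, was 112, 0, 277 and 1.17 CPM in members and 217, 1.83, 251 and 1.52 CPM in Kit-low cells, so its level followed the experiment. It did not pass with the experiment as a block (adjusted p = 0.9997). Reads of near-identical copies of this gene can be split between them, which was not tested.

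**Figure D5:**
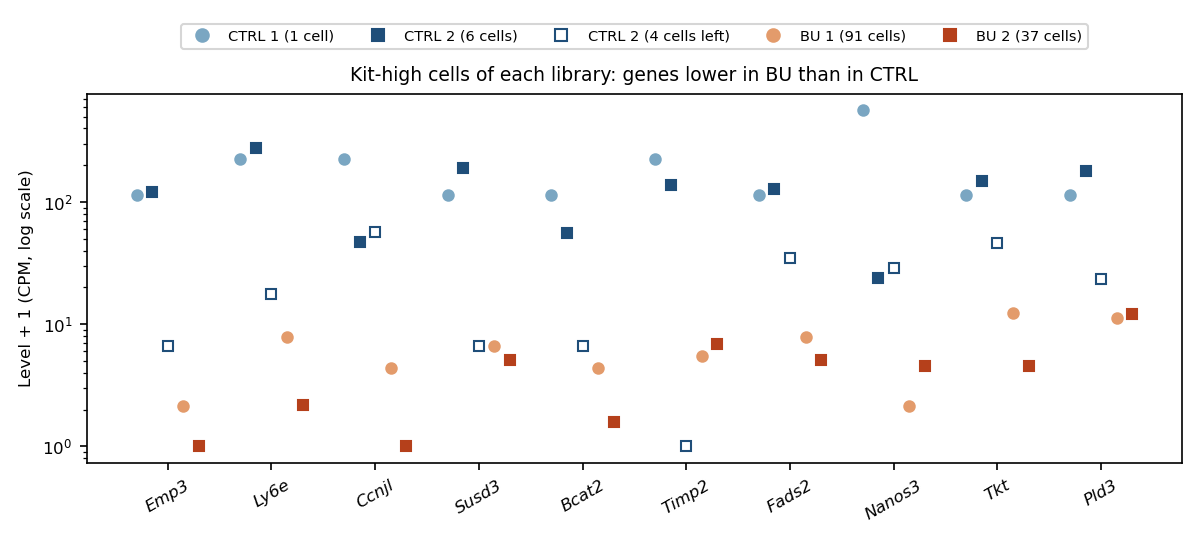
Level plus 1 (CPM, log axis) in the members of each library for the 10 genes lower in BU with the largest changes. Open squares are CTRL 2 without copies and Leydig cells. There *Emp3* moves from 119 to 5.60 CPM, *Ccnjl* from 45.7 to 56.0 CPM and *Nanos3* from 22.8 to 28.0 CPM. *Susd3* (5.60 CPM) and *Timp2* (0 CPM) then no longer lie above both BU libraries.

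No list gave more than 1 gene that passed between BU and CTRL members. Of 10 tested p53 targets none did, with a median log2 fold change of 1.14 against 0.14 over all genes. *Ccng1* had 1.91 ± 0.69 (SE, adjusted p = 0.502). Of 19 KIT signalling, 8 retinoic acid, 21 meiotic entry, 27 S phase and 26 mitosis genes none passed, and of 10 differentiation genes only *Nanos3* did. *Stra8* in members was 112 and 640 CPM in CTRL and 563 and 347 CPM in BU, with overlapping groups and a log2 fold change of -0.05 ± 0.59. The share of thinned members with a *Stra8* UMI was 0 of 1, 80% (4 of 5), 70.5% and 64.9%, and the difference of 27.7 percentage points (BU minus CTRL) gave p = 1.0 in a two-sided exact permutation test. Unthinned it was -9.71, so with 7 CTRL members neither its size nor its direction held.

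A wider limit gave more CTRL cells. With the *Kit* level over 2.5 in place of 3, and without copies and Leydig cells, there were 20, 15, 200 and 88 cells. This choice was made after the first results were seen. In CTRL 1, the 37 Kit-low cells of the main limit with any *Kit* UMI held 38, so nearly all cells added there had 1. CTRL 1 cells of the wider limit had 133 CPM of *Nanos3* and 50.5 of *Foxc2*, against 127 and 54.6 in its Kit-low cells. They had 562 CPM of *Stra8* against 65.7. In CTRL 2, *Nanos3* and *Foxc2* were 23.3 and 5.82 CPM against 113 and 29.6. The part of cells with 1 *Kit* UMI in the differences that follow was not tested. No gene passed of 9393 tested (476 had an unadjusted p under 0.05), and with the experiment as a block 202 did (2.15%), 23 higher (0.245%) and 179 lower (1.91%). Of 14 tested p53 targets 4 were then higher and none lower (28.6%, against 2.15% of all genes). Stem cell genes gave 2 higher of 10 (20%) and progenitor genes 2 lower of 7 (28.6%). *Ccng1* was 50.5 and 50.5 CPM in CTRL 1 and CTRL 2 and 243 and 212 CPM in BU 1 and BU 2, a log2 fold change of 2.14 ± 0.40 (SE, adjusted p = 1.27e-05 with the block and 0.846 without). *Cdkn1a* was 12.6, 5.82, 43.4 and 65.8 CPM, at 2.92 ± 0.67. BU and CTRL did not overlap for either gene. Among Kit-low cells of the main limit *Ccng1* was also higher in both BU libraries than in both CTRL libraries. *Pmaip1* and *Phlda3* had 3.05 ± 0.90 and 1.56 ± 0.47.

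With that limit and block, *Dmrtb1* was 0 and 54.4 CPM in CTRL and 120 and 124 CPM in BU, at 1.91 ± 0.46. *Mki67* and *Top2a* were the 2 of 26 mitosis genes that were higher, and *Epcam*, a cell adhesion molecule, had 1.20 ± 0.34. *Nanos3* had -3.12 ± 0.56, *Upp1* -4.51 ± 0.55 and *Ccnd2* -1.38 ± 0.31. *Stra8* had -0.39 ± 0.30 and did not pass. All 5 tested spermatid genes were lower in BU as well, with *Prm1* at -3.09, and the part of spermatid transcripts in the other lower genes was not tested.

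Whether BU acted alike on members and on Kit-low cells was tested as a difference of effects. Of 13501 genes 175 passed (1.3%), 25 higher (0.185%) and 150 lower (1.11%) in members, and without copies and Leydig cells 6 of 13461 did (0.0446%). These were *Sox3* and *Gm13075*, higher (0.0149%), and *Stra8*, *Ccnd2*, *Was* and *Gm28578*, lower (0.0297%). *Was*, *Gm13075* and *Gm28578* are named after their values were seen. None passed without CTRL 2 (458 had an unadjusted p under 0.05) or without library as a term (902). In Kit-low cells *Stra8* was 65.7 and 42.3 CPM in CTRL and 148 and 91.1 CPM in BU, while in members the groups overlapped, and the difference of the effects was -1.56 ± 0.34 on the log2 scale (SE, adjusted p = 0.0115). *Ccnd2* was 445 and 266 CPM in CTRL and 944 and 701 CPM in BU Kit-low cells, and lower in BU than in CTRL members, with a difference of -2.86 ± 0.44. *Sox3* was 102 and 167 CPM in CTRL and 35.1 and 46.4 CPM in BU Kit-low cells, while members had 112, 91.4, 88.4 and 105 CPM. Its difference was 2.27 ± 0.46. For these 3 genes members of BU and CTRL were closer to each other, or differed in the opposite direction, than Kit-low cells of BU and CTRL.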

How the data were processed

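Single-cell RNA-Seq (10x Genomics) was made from 4 libraries of sorted A_undiff. The authors deposited raw UMI counts per gene and cell, made with Cell Ranger 3.0.2 per the file headers, with 27998 genes in experiment 1 and 31053 in experiment 2. The 27514 genes in both were used. The study's methods give build mm10, the submitters' processing notes name GRCm39 and Seurat 3.2, and Seurat output was not used here. Positions are from the GRCm38 annotation and no count depends on them.

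Members and gene lists were chosen with earlier results of these data known. Counts were summed per library and class and tested in edgeR 4.0.16 (R 4.3.3) by quasi-likelihood with TMM scaling, a filter on low counts and Benjamini-Hochberg adjustment at 0.05. Members against Kit-low cells had library as a term, BU against CTRL was unpaired, and the difference of effects had library, class and class within BU. Named genes were all genes of the lists plus the 10 with the largest change each way (5 for the difference of effects), and some of them are not reported here. Groups hold 2 libraries of pooled mice, so p-values of the unpaired BU against CTRL fit measure the spread between libraries of a group. In fits with library as a term, they measure how far the difference between members and Kit-low cells varied from library to library. For the difference of effects this variation is taken within BU and within CTRL. Fits in BU or CTRL libraries alone, and BU against CTRL with the experiment as a block, left very few residual degrees of freedom.

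On simulated counts with 200 of 13501 genes changed by 2 on the log2 scale, 84.5% were recovered for members against Kit-low cells and 19% for the difference of effects, and of 7055 genes 8.5% of the 200 for BU against CTRL. Of the genes called, 6.63%, 7.32% and 0% were false, in that order. Apart from the changed genes, all simulated sums had the same mean profile, so they held no difference between experiments. Same-numbered libraries come from 1 experiment per the labels, and their deviations from group means correlated at 0.289 in members (7061 genes) and 0.641 in Kit-low cells (15980 genes), so a fit with the experiment as a block was the alternative for BU against CTRL. Doublets were marked at a rate of 0.8% per 1000 cells, 195 cells in all (2.60%), since the caller's own threshold marked only 15 (0.200%). Alternatives were DESeq2 1.42.0, other *Kit* limits, other cell filters, no count filter, and leaving out each library. Leaving out copies and Leydig cells was chosen after seeing the data.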

Additional observations from a re-analysis of the deposited data

Results flagged for a closer look

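Results in this part differed between members and Kit-low cells in how BU and CTRL compared, by a test of the difference itself (edgeR, log2 scale, members minus Kit-low cells). There were 175 such genes, of which 6 passed without shared-barcode copies and Leydig cells.

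Of these, 3 genes on the gene lists passed in both fits. The difference was -1.42 for *Stra8*, -2.72 for *Ccnd2* and 2.32 for *Sox3*.

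Other listed genes passed only with the Leydig-marker cell and the copies in CTRL 2. The differences were -6.92 for *Kitl*, -6.14 for *Aldh1a1*, -3.75 for *Clu*, -3.59 for *Cdkn1a*, -3.25 for *Star*, -1.49 for *Txn1* and 1.95 for *Tet3*. In CTRL 2 members *Clu* was 361 CPM with those cells and 0 without, and *Cdkn1a* was 133 CPM and then 0. *Tet3* was 82.2 CPM with them and 95.1 without, so its level moved little.

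The largest differences were fitted where the members of a group had no UMI or, for *Tmem176b*, 1 UMI over both BU libraries, and such values are no bounds. The positive ones were 12.24 for *Hspa1a*, 12.07 for *Oaz3*, 12.04 for *Deaf1*, 11.91 for *1700031P21Rik* and 11.85 for *Itpka*, all at 0 CPM in the 7 CTRL members. In BU members *Deaf1* was 39.7 and 32.7 CPM, *Oaz3* 12.5 and 57.9 CPM and *Hspa1a* 6.80 and 7.02 CPM. Negative ones were -11.13 for *Serpina5*, -10.35 for *Tmem176b*, -10.33 for *Sepp1* and -9.61 for *Ifi35*. In CTRL 2 members *Serpina5* was 110 CPM, *Tmem176b* 521 and *Sepp1* 54.8 CPM, and each was 0 without the copies and Leydig cells. *Ifi35* was 22.8 CPM there and 5.60 without them. No group held enough libraries for a test of outliers.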

How the results depend on the processing

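The difference in the share of members (3.45 percentage points, BU minus CTRL) stayed positive under every setting run, at 7.34 with *Kit* over 2.5, 0.00516 with *Kit* over 4 (3 members, in CTRL 2 and BU 1) and 2.64 to 4.25 when each library was left out, and the replicate block of each experiment left it at 3.45. The *Stra8* share difference (27.7) was -9.71 unthinned and -12.3 to 67.7 when each library was left out, -12.3 without CTRL 1. The 3157 genes between members and Kit-low cells were 1241 with *Kit* over 2.5, 0 with *Kit* over 4 (288 had an unadjusted p under 0.05), 1075 with at least 2 *Kit* UMIs at equal depth, 1016 by DESeq2, 1183 without the replicate block (library as a term), 310 with CTRL libraries only and 895 to 4080 when each library was left out, with 1222 without BU 1 and 895 without BU 2. The 39 genes between BU and CTRL members were 35 with the replicate block, 0 with *Kit* over 2.5 and 273 there with the block, 78 with at least 2 *Kit* UMIs at equal depth, 3 without copies and Leydig cells, 0 and 202 (block) with both changes, 13 by DESeq2, 209 without the count filter and 0 to 57 when each library was left out, with 0 without CTRL 1 and 1 without CTRL 2. The 175 differences of effects were 688 with *Kit* over 2.5, 715 with at least 2 *Kit* UMIs at equal depth, 6 without copies and Leydig cells, 399 with that and *Kit* over 2.5, 36 by DESeq2, 0 without the replicate block, here library as a term (902 had an unadjusted p under 0.05) and 0 to 198 when each library was left out, with 0 without CTRL 2 and 76 without BU 2. *Kit* over 4 left only 3 members, and the causes of these changes were not tested.

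Of 1963 values for 110 genes, 1498 kept their direction and side of the threshold, 411 lost the call, 27 gained it and 27 reversed. With CTRL libraries only, members against Kit-low cells gave 1.46 for *Cyp26a1*, -0.23 for *Meioc*, -8.83 for *Mei1*, -0.0607 for *Tet3* and 2.66 for *Cdkn1a*. *Rec8* was -0.0029 against *Stra8*-high cells. *Aldh1a1* was -1.35 with at least 2 *Kit* UMIs, -1.47 without copies and Leydig cells, -1.44 with that and *Kit* over 2.5, -1.60 without any shared barcode, -1.45 in BU libraries and -1.41 (without CTRL 2) to 3.76 when each library was left out. For the difference of effects, with *Kit* over 2.5, with at least 2 *Kit* UMIs and with *Kit* over 2.5 without copies and Leydig cells, *Oaz3* was -2.82, -3.72 and -3.04 and *1700031P21Rik* -0.49, -2.24 and -0.71. *Serpina5* was 7.90 with at least 2 *Kit* UMIs, 0.97 without copies and Leydig cells, 6.01 with that and *Kit* over 2.5, and -11.38 to 0.32 (without CTRL 2) when each library was left out. *Tmem176b* was 8.94 with at least 2 *Kit* UMIs, 3.90 without copies and Leydig cells and -14.47 to 3.77 (without CTRL 2) when each library was left out, and *Sepp1* was 1.65 and -10.63 to 1.80 under the last 2. BU against CTRL is limited by the few CTRL members, with 1 cell of 8906 UMIs in CTRL 1.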
